A study of Mus musculus with 24 samples.

Results

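The genotype difference in mouse retinal pigment epithelium (RPE) at CT19, in late subjective night, was described across all genes measured. Members were chosen by their titles: the 6 libraries of CT19 among the 24 of the series, 3 wild type and 3 of mice with the genotype Per1-/-Per2Brdm1. CT, circadian time, counts hours of the animals' internal day, which begins at subjective dawn. All mice were males of 6 weeks on a C57BL/6/J x 129 SvEvBrd background, a mix that both genotypes share. RPE was cut from snap-frozen eyes by laser capture microdissection, and polyadenylated RNA was sequenced. Knockout library 3and5 was a pool of 2 eyes, and the other 5 libraries (knockout 2 and 4, wild type 1, 2 and 4) came from 1 eye each. Whether every library is from its own animal is not said in the labels, and p-values thus rest on the variation among libraries, which may be technical. "Knockout" means labelled knockout throughout, and library values are given in the order wild type 1, 2, 4 and knockout 2, 3and5, 4.

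The RPE is a single pigmented cell layer between the photoreceptors and the choroid, which recycles visual pigment and daily engulfs the shed tips of photoreceptor outer segments. Like most tissues it holds a circadian clock, a loop in which BMAL1 and CLOCK (or NPAS2) switch on the Per and Cry genes through E-box DNA and the PER and CRY proteins then repress BMAL1 and CLOCK. Side loops run through the REV-ERB repressors (Nr1d1, Nr1d2), and through the activators DBP, TEF and HLF and the repressor NFIL3, which meet at D-box DNA. The series asks what Per1 and Per2 contribute to the daily rhythm of outer segment uptake. CT19 lies in the subjective night, before dawn.

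Total counts were 23474388 to 32066263 per library, and 20275 genes were tested. In a principal component analysis of the 500 most variable genes, knockout library 2 lay apart on the first component (37.6% of the variance), at -48.97 against -0.64 to 22.97 for the others. It also had the fewest genes detected, 19892 against up to 24072. RPE transcripts were high in all 6 libraries: Rpe65, the isomerase of the visual cycle, was at 4095, 6719.9 and 5931 CPM in wild type and 7229, 3004 and 4469.6 CPM in knockout. CPM is the count scaled to a common library size with TMM factors and not corrected for gene length, so levels are compared within a gene only.

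Per1 and Per2, the altered genes, encode the repressors that close the clock loop. Per2 (chromosome 1, 91415982 to 91459324, minus strand, GRCm38) was at 30.9, 22.2 and 23.0 CPM in wild type and 75.4, 127.1 and 114.3 CPM in knockout. Each knockout library was above each wild type one, with a log2 fold change (knockout minus wild type) of 2.06 (SE 0.32, adjusted p 0.0062). Per1 (chromosome 11, 69095217 to 69109960, plus strand) was at 52.5, 41.3 and 43.9 and 101, 159.8 and 164 CPM. Its groups did not overlap either, but with 1.63 (SE 0.32, adjusted p 0.059) it did not pass the threshold. The counts of both altered genes were thus above wild type rather than below it under the knockout label. Counts over the whole gene do not show whether a part is missing: Per2Brdm1 is known as an allele that lacks part of the PAS domain while a transcript is still made. Every direction given is that of the libraries labelled knockout.

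At an adjusted p under 0.05, 14 genes passed, 0.0691% of those tested. Of these, 9 rose (0.0444%) and 5 fell (0.0247%) in knockout, and 6 were clock genes of the lists used. The other 8 were Gzmm, Rasl10b, Gm15348, Gm9176, Syt17, Dkk3, Dbi and Cdh3. DESeq2 called 37, of which 16 were higher and 21 lower. In edgeR, all 14 had groups that did not overlap, which was true of 3.96% of all genes upward and 5.31% downward, and 13 changed by at least 1 on the log2 scale. At an unadjusted p under 0.05 there were 704 genes (3.47%), 228 higher (1.12%) and 476 lower (2.35%). That is fewer than such a threshold gives on average where no gene differs. The median log2 fold change of all genes was -0.01.

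**Figure D1:**
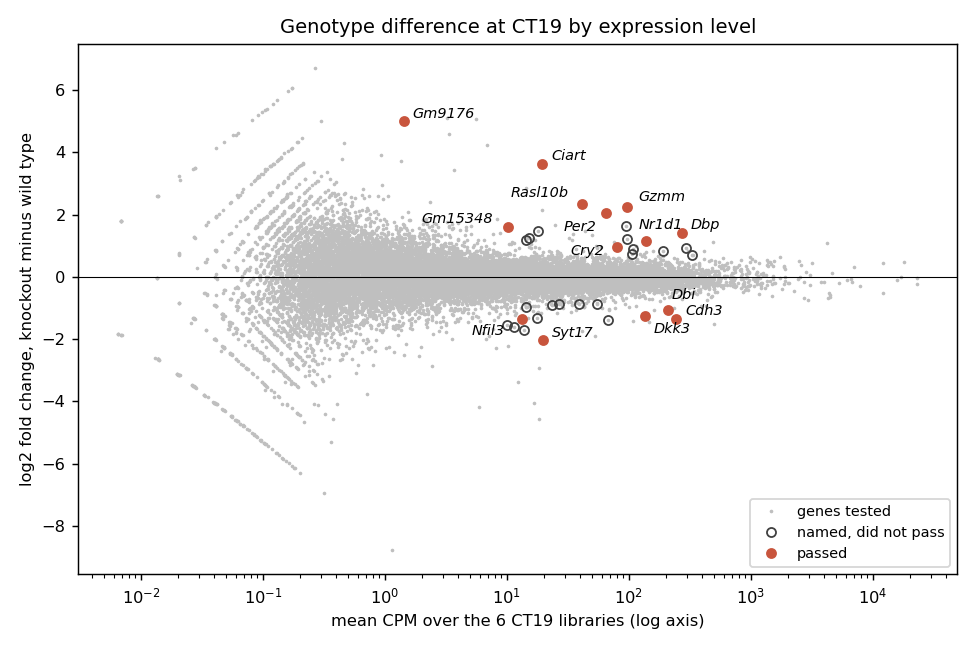
Log2 fold change at CT19, knockout minus wild type, against mean CPM over the 6 libraries (log axis), 1 point per gene tested. The 14 genes that passed are filled and named, and 20 genes named without passing (10 higher, Per1 among them, and 10 lower) are open circles. Ciart, with 3.64, and Gm9176, with 5.0, have the highest values among the genes that passed.

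**Figure D2:**
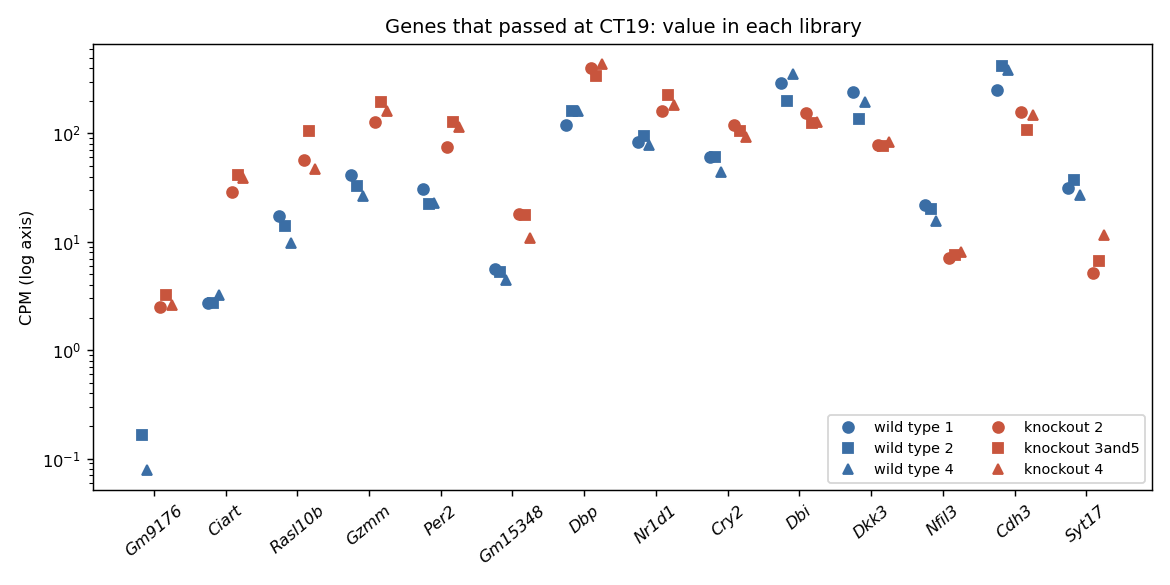
CPM (log axis) of the 14 genes that passed, 1 point per CT19 library, blue for wild type and red for knockout, in order of log2 fold change. In each gene the 3 red points lie on one side of the blue ones. Gm9176 in wild type library 1 is 0 and is not drawn.

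Besides Per2, 4 genes of the clock lists rose: Ciart, Nr1d1, Dbp and Cry2. Ciart encodes CHRONO, a repressor of BMAL1 and CLOCK, and lies on chromosome 3 from 95878503 to 95882251 (minus strand). Its wild type libraries were at 2.71, 2.73 and 3.25 CPM and its knockout libraries at 28.7, 41.1 and 38.8 CPM, a ratio of the means of 12.5 and a log2 fold change of 3.64 (SE 0.42, adjusted p 2.1e-04). Nr1d1 encodes REV-ERB alpha, which represses Bmal1 (chromosome 11, 98767932 to 98775333, minus strand). It was at 83.6, 95.2 and 78.3 CPM in wild type and 161, 226 and 183 CPM in knockout (log2 fold change 1.15, SE 0.15, adjusted p 3.8e-04). Dbp, the D-box activator (chromosome 7, 45705088 to 45710203, plus strand), was at 120.4, 161 and 161 against 406, 340.3 and 435 CPM (log2 fold change 1.42, SE 0.21, adjusted p 0.0035). Cry2, the partner of the PER proteins (chromosome 2, 92403646 to 92434043, minus strand), was at 60.0, 60.9 and 43.7 against 118.6, 106 and 93.2 CPM (log2 fold change 0.95, SE 0.17, adjusted p 0.022). In each of these genes the lowest knockout library stood above the highest wild type library. Nr1d1 overlaps Thra, Dbp overlaps Sphk2, Cry2 overlaps D930015M05Rik and Ciart overlaps C920021L13Rik, each on the opposite strand. The strand setting of the counting is not given in the sources used here, so reads of such pairs cannot be told apart.

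Nfil3, the D-box repressor (chromosome 13, 52967209 to 52981073, minus strand), was the clock gene that fell. It was at 21.7, 20.2 and 15.6 CPM in wild type and 7.13, 7.61 and 8.04 CPM in knockout (log2 fold change -1.34, SE 0.23, adjusted p 0.016). The 3 knockout values lay within 1 CPM of each other, all below the lowest wild type value.

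Of 14 clock repressors and outputs with E-boxes or D-boxes, 5 rose and none fell. Knockout lay wholly above wild type in 11, against 3.96% of all genes, and the median log2 fold change was 0.92. Among those that did not pass, Nr1d2, the second REV-ERB gene, had 0.73 (SE 0.15, adjusted p 0.059), Per3 had 1.23 (SE 0.26, adjusted p 0.076), and Tef, of the D-box activators, had 0.70 (SE 0.16, adjusted p 0.16). Cry1 was at 54.3, 37.8 and 34.5 against 67.1, 65.5 and 38.0 CPM, and Bhlhe40, a repressor at E-boxes, at 99.3, 134.1 and 107 against 141, 95.9 and 101 CPM, both with overlapping groups. Of 7 activators and genes of the ROR and NFIL3 arm, Nfil3 fell and none rose. The median there was -0.37, and Arntl, which encodes BMAL1, was lower without overlap but did not pass (74.8, 49.7 and 43.9 against 26.2, 36.8 and 23.9 CPM, log2 fold change -0.95, SE 0.31). These clock patterns were known when the lists were drawn up and are given as description.

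Of the 4 genes outside the clock lists that rose, Gzmm encodes granzyme M, a serine protease known from killer lymphocytes (chromosome 10, 79689020 to 79695261, plus strand). It was at 41.5, 33.0 and 26.2 CPM in wild type and 126.4, 195 and 160.2 CPM in knockout (log2 fold change 2.26, SE 0.35, adjusted p 0.0076). The lowest knockout value, 126.4 CPM, lay well above the highest wild type value, 41.5 CPM. The lymphocyte markers Cd3e, Cd79a, Ms4a1, Nkg7 and Gzmb were below 1 CPM in each CT19 library. The summed level of the 22 immune markers ranged over 443 to 630.2 CPM for wild type and over 375 to 562 CPM for knockout. Its most abundant members were Csf1r, Lyz2 and Hcls1, so that sum does not measure lymphocyte content. The part of immune cells in the Gzmm difference was not tested.

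Rasl10b encodes a small GTPase related to RAS (chromosome 11, 83409137 to 83421039, plus strand). Its values were 17.3, 14.0 and 9.80 CPM in wild type and 56.3, 105 and 46.8 CPM in knockout (log2 fold change 2.34, SE 0.41, adjusted p 0.024). Knockout library 3and5 was the highest, and the other two were still above every wild type library. Gm15348 is a long intergenic RNA (chromosome 8, 12706944 to 12719127, minus strand), measured at 5.59, 5.22 and 4.43 and 17.96, 17.6 and 10.8 CPM (log2 fold change 1.60, SE 0.31, adjusted p 0.033).

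Gm9176 is annotated as a processed pseudogene (chromosome 10, 128549694 to 128550813, minus strand). It had 0, 4 and 2 reads in the wild type libraries and 62, 104 and 63 in the knockout libraries. The fitted log2 fold change was 5.0 (SE 0.88, adjusted p 0.017), a size that depends on how the near-empty group is handled. A processed pseudogene can share reads with the gene it was copied from, so its count is uncertain.

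Outside the clock lists, 4 genes fell: Syt17, Dkk3, Dbi and Cdh3. Syt17 encodes a synaptotagmin, a family of membrane traffic proteins (chromosome 7, 118380717 to 118448222, minus strand). It was at 31.1, 37.4 and 27.0 CPM in wild type and 5.13, 6.61 and 11.5 CPM in knockout (log2 fold change -2.04, SE 0.33, adjusted p 0.0062). Dkk3 encodes a secreted glycoprotein of the Dickkopf family (chromosome 7, 112116017 to 112159057, minus strand). It was at 239.9, 136 and 196 against 79.0, 76.3 and 82.8 CPM (log2 fold change -1.26, SE 0.22, adjusted p 0.017). The knockout values lay close together, while wild type library 1 was the highest and wild type library 2 the lowest of its group. Dkk3 is also on the list of 27 inner retina and glia markers. The summed level of that list ranged over 11802 to 14628 CPM for wild type and over 8375 to 16152 CPM for knockout. Most of that sum was Apoe, Rlbp1 and Glul (wild type means of 6273, 3338 and 1680 of 13040 CPM), and Rlbp1 is also an RPE identity gene. The sum thus does not measure inner retina content. Of the 27 markers 20 were negative (median -0.19), and the part of such cells in the Dkk3 difference was not tested.

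Dbi encodes the acyl-CoA binding protein, which carries activated fatty acids (chromosome 1, 120113280 to 120121078, minus strand). Its libraries were at 292, 199.6 and 355 CPM in wild type and 153, 123.8 and 127.2 CPM in knockout (log2 fold change -1.07, SE 0.21, adjusted p 0.046). Cdh3 encodes P-cadherin, an adhesion protein of the junctions between RPE cells (chromosome 8, 106510891 to 106557297, plus strand). It was at 251, 419 and 385 against 159, 108 and 149 CPM (log2 fold change -1.34, SE 0.27, adjusted p 0.046). Both groups were well apart in Cdh3, with 251 CPM as the lowest wild type and 159 CPM as the highest knockout value. Among other adhesion and junction genes, Cadm1 was at 65.1, 48.6 and 37.5 against 88.8, 89.9 and 55.5 CPM, and Cdh3 was the only one of 29 that passed (median -0.12).

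These 14 calls did not rest equally on the libraries. Leaving out wild type library 1, 2 or 4 left 9, 6 or 5 genes passing, and leaving out knockout library 2, 3and5 or 4 left 7, 3 or 11. Ciart, Nr1d1 and Dbp passed in each of these 6 fits. Without knockout library 3and5 they were the only 3 that passed, and Per2 and Gzmm also lost their calls without wild type library 2 or 4. Syt17 lost its call without knockout library 2 or 3and5, and each of the remaining 8 genes (Cry2, Nfil3, Dkk3, Dbi, Cdh3, Rasl10b, Gm15348 and Gm9176) in at least 4 of the 6 fits. No sign changed.

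Per1 lies on chromosome 11 and Per2 on chromosome 1, where altered alleles can bring flanking DNA of the strain they were made in. Of all genes tested, 0.0691% passed. On chromosome 1, 2 of 1290 genes tested passed (0.155%), Per2 itself, an altered gene, and Dbi, 28.70 Mb away. On chromosome 11, 2 of 1534 passed (0.13%): Nr1d1, 29.67 Mb from Per1, and Rasl10b, 14.31 Mb from it. The labels give the same mixed background for both genotypes, and strain differences near the altered genes and effects of the genes themselves cannot be told apart.

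Promoter sequence was looked up for the genes that passed, since clock proteins act through short DNA motifs. The RefSeq promoter set used here (GRCm38.p6) held 8 of the 14. Per2, Syt17, Dkk3, Rasl10b, Cdh3 and Gm9176 were not in that set and were not searched. Each window ran from 250 bases before to 50 bases from a start site, 300 in all. The windows were searched on both strands for the E-box CACGTG, the D-box TTANGTAA and the REV-ERB and ROR element TAGGTCA. The 4 stretches shown are those that held a match. Each is written 5′ to 3′ along its gene's strand, with the matches in capitals.
Ciart, chr3:95882237-95882374, minus strand: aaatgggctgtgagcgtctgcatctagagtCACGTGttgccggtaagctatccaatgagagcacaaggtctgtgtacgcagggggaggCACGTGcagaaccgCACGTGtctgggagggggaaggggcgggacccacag
Gzmm, chr10:79693787-79693854, plus strand: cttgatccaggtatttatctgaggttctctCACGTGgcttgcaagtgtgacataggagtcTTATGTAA
Gm15348, chr8:12719179-12719246, minus strand: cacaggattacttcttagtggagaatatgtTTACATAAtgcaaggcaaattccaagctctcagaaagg
Nfil3, chr13:52981040-52981081, minus strand: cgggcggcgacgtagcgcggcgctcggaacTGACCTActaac

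Ciart, which rose the most of the clock genes, held the E-box 3 times, the first bases at -116, -58 and -44 from the start. Gzmm held it once, at -9 from its second start, and the D-box at 22 bases past that start. The window of the first start of Gzmm (79688770 to 79689069) held no match. The E-box was in 2 of the 8 genes with a promoter here, and in 8.09% of the 27025 genes of that RefSeq set. Gm15348 held the D-box at -89, which made 2 of 8 genes against 2.72% of all. Nfil3 held the TAGGTCA element on the opposite strand at -12, 1 of 8 genes against 2.97%. A match is a description of these letters, and no binding was measured. No match was found in the windows of Nr1d1, Dbp, Cry2 and Dbi.

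The libraries of CT22, CT1 and CT10 gave the same measure in other samples, and no library is shared between times. At CT22, 14 of the 14 genes had the sign they had at CT19, against 57.4% of all genes, and 9 passed there (0.227% of all genes passed). Those were Ciart, Nr1d1, Dbp, Per2, Gzmm, Gm9176, Cry2, Rasl10b and Cdh3. At CT1, 13 kept the sign against 49.1% of all genes, with Nr1d1 as the exception, and 6 passed (0.533%): Ciart, Dbp, Per2, Nfil3, Cry2 and Gm15348. At CT10, 7 kept it against 45.4%, and Rasl10b and Gm15348 passed (0.0345%). The 8 genes outside the clock lists kept their sign in 8, 8 and 6 cases at CT22, CT1 and CT10.

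**Figure D3:**
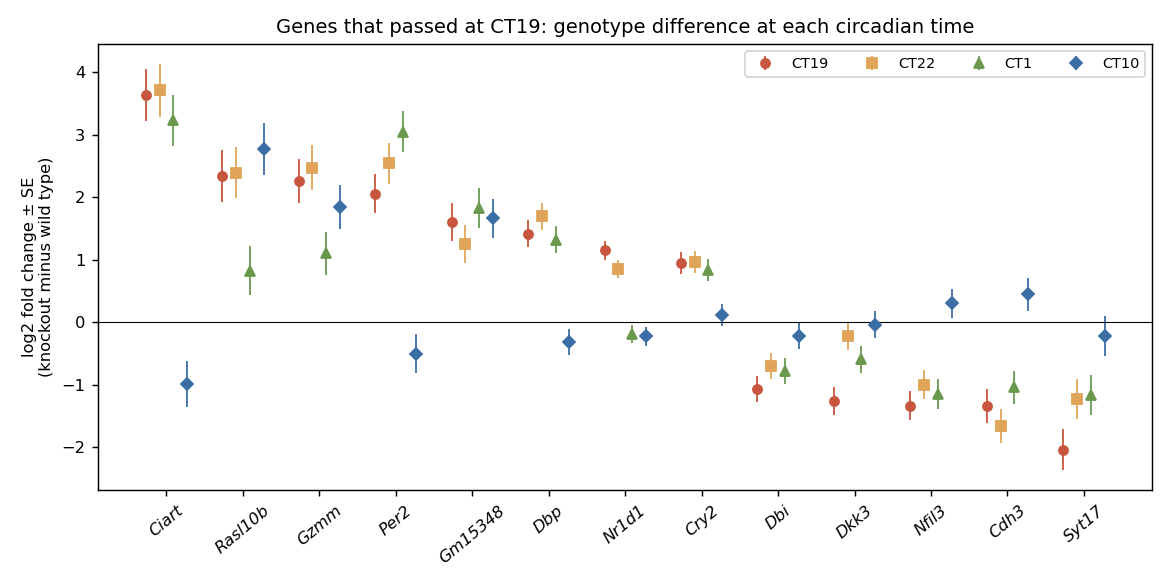
Log2 fold change, knockout minus wild type, with its SE, at CT19, CT22, CT1 and CT10, for 13 of the 14 genes that passed at CT19 (Gm9176, which was near 0 in wild type, is left out). Ciart stands between 3.23 and 3.71 at CT19, CT22 and CT1 and at -0.99 at CT10.

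Time by time, in contrasts added after the data were seen, the difference at CT19 was unlike that at CT10 for 7 genes (0.0345%) and unlike that at CT1 for 1 (0.00493%). Against CT22 no gene passed, and 784 (3.87%) had an unadjusted p under 0.05, fewer than such a threshold gives on average where no gene differs. Mean Ciart in wild type was 2.90 CPM at CT19, 2.46 at CT22, 4.08 at CT1 and 55.3 at CT10, and in knockout 36.2, 32.4, 38.6 and 27.8 CPM. The knockout means thus lay between 27.8 and 38.6 CPM, while the wild type mean at CT10 was far above the other 3. Single knockout libraries varied more, with 20.3, 38.9 and 56.7 CPM at CT1. The CT19 log2 fold change of Ciart exceeded that of CT10 by 4.63 (SE 0.55; adjusted p 4.3e-04). Mean Nr1d1 in wild type was 85.7, 104 and 165 CPM at CT19, CT22 and CT1, and in knockout 190.2, 188 and 145 CPM. Its CT19 difference exceeded that of CT1 by 1.34 (SE 0.21; adjusted p 0.018). Gzmm, Rasl10b and Gm15348, by contrast, were higher in knockout at each of the 4 times. Their CT19 difference was not shown to differ from the mean of the others (log2 0.45, SE 0.39, log2 0.35, SE 0.46, and log2 0.02, SE 0.36). Syt17, Dkk3 and Dbi were lower in knockout at each time, Dkk3 with only -0.04 at CT10.

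Over all genes, the CT19 difference was compared with the mean difference of the other 3 times. No gene passed in edgeR, 637 had an unadjusted p under 0.05 (3.14%, again fewer than where no gene differs), and DESeq2 called 1. That gene was Nr1d1, which had the lowest p in edgeR (log2 1.01 more at CT19, SE 0.17, adjusted p 0.068). Next toward higher values at CT19 were Rpgrip1, a protein of the photoreceptor cilium (1.04), Ciart (1.66), Trim17, a ubiquitin ligase (1.35), and Eps8l1. Eps8l1 had 0, 0.787 and 0.157 CPM in wild type and 19.4, 12.6 and 0.539 CPM in knockout at CT19, so knockout library 4 was close to wild type. Toward lower values were Pmel, Gch1, Hadhb, Jcad and Tagln. For Pmel, the scaffold protein of pigment granules, the log2 genotype difference at CT19 minus the mean of the other differences was -1.79 (SE 0.41, adjusted p 1). Mean Pmel in wild type was 734 CPM at CT19, 358 at CT22, 432 at CT1 and 237 at CT10, and in knockout 259.7, 456, 373 and 397 CPM. For Gch1, the first enzyme of tetrahydrobiopterin synthesis, that contrast was -2.23 (SE 0.53, adjusted p 1). Its CT19 values were 24.9, 21.5 and 17.9 CPM in wild type against 10.9, 8.41 and 6.18 CPM in knockout. Mean Gch1 in wild type was 9.21, 10.2 and 10.2 CPM at CT22, CT1 and CT10, below its CT19 level, and in knockout 13.3, 17.7 and 26.2 CPM.

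Beyond the genes that passed, 20 were named as values only. They had at least 5 CPM and groups without overlap, and were the 10 with the lowest p in each direction (of 318 higher and 664 lower genes of that kind). Groups without overlap were seen in 2.85% (higher) and 5.84% (lower) of all genes at that level. Their adjusted p ran from 0.059 (Nr1d2 and Per1) to 0.38 (Plk5 and Rpgrip1). Upward, 5 were genes of the clock lists: Per1, Nr1d2, Per3, Tef and Usp2, a deubiquitinase of clock proteins (adjusted p 0.34). Gdpd2, a glycerophosphodiester phosphodiesterase, was at 8.81, 10.6 and 7.41 against 23.2, 24.5 and 16.3 CPM (log2 fold change 1.26, SE 0.29, adjusted p 0.18). Unc5c, a netrin receptor, was at 4.91, 10.8 and 12.5 against 34.5, 25.1 and 19.9 CPM (log2 fold change 1.49, SE 0.37, adjusted p 0.25). Plk5, a polo-like kinase, had a log2 fold change of 0.84 (SE 0.22) and Rpgrip1, also one of the rod markers, of 0.92 (SE 0.24). The last was Gm45767, an antisense gene to Pllp (adjusted p 0.37).

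Downward, Pmepa1, a target and inhibitor of TGF-beta signalling, came closest, with 45.6, 48.2 and 58.0 against 22.9, 31.5 and 28.4 CPM (log2 fold change -0.87, SE 0.18, adjusted p 0.076). Rnf144b, a ubiquitin ligase, was at 29.9, 31.0 and 30.1 against 15.9, 17.0 and 15.8 CPM. Cck, the neuropeptide cholecystokinin, was at 14.0, 20.2 and 17.0 against 5.01, 6.02 and 5.80 CPM (log2 fold change -1.60, SE 0.36). Ccnjl, a cyclin-like gene, was at 17.5, 24.9 and 20.9 against 10.5, 4.69 and 4.27 CPM, and Pim1, a serine/threonine kinase, at 30.6, 35.9 and 37.9 against 14.7, 18.8 and 23.3 CPM. Tagln, an actin-binding protein of smooth muscle, and Hcls1, a protein of blood cells, are markers of other cell types, at 21.9, 8.94 and 13.9 against 5.93, 3.97 and 5.51 and 30.1, 19.5 and 25.4 against 7.41, 12.6 and 10.2 CPM. Jcad, Rasl11a and Klhdc8a complete the 10, with log2 fold changes of -0.86 to -1.38. At CT22 all 20 genes kept their sign, at CT1 16 and at CT10 11, against 57.4%, 49.1% and 45.4% of all genes.

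The gene lists describe the rest of the tissue, 936 genes in 41 lists, of which 47 genes are in more than 1. In 34 lists no gene passed, and in 34 the median lay below that of all genes, -0.01. Of all 20275 genes tested, 14 passed (0.0691%), 10416 were at or below 0, 3.96% lay wholly above wild type and 5.31% wholly below. The counts of each list are to be read beside these shares. At 0.0691%, lists of such sizes mostly hold no call, so a list without one says little about its genes. In a bulk sample, fewer cells of a type and less RNA per cell cannot be told apart.

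**Figure D4:**
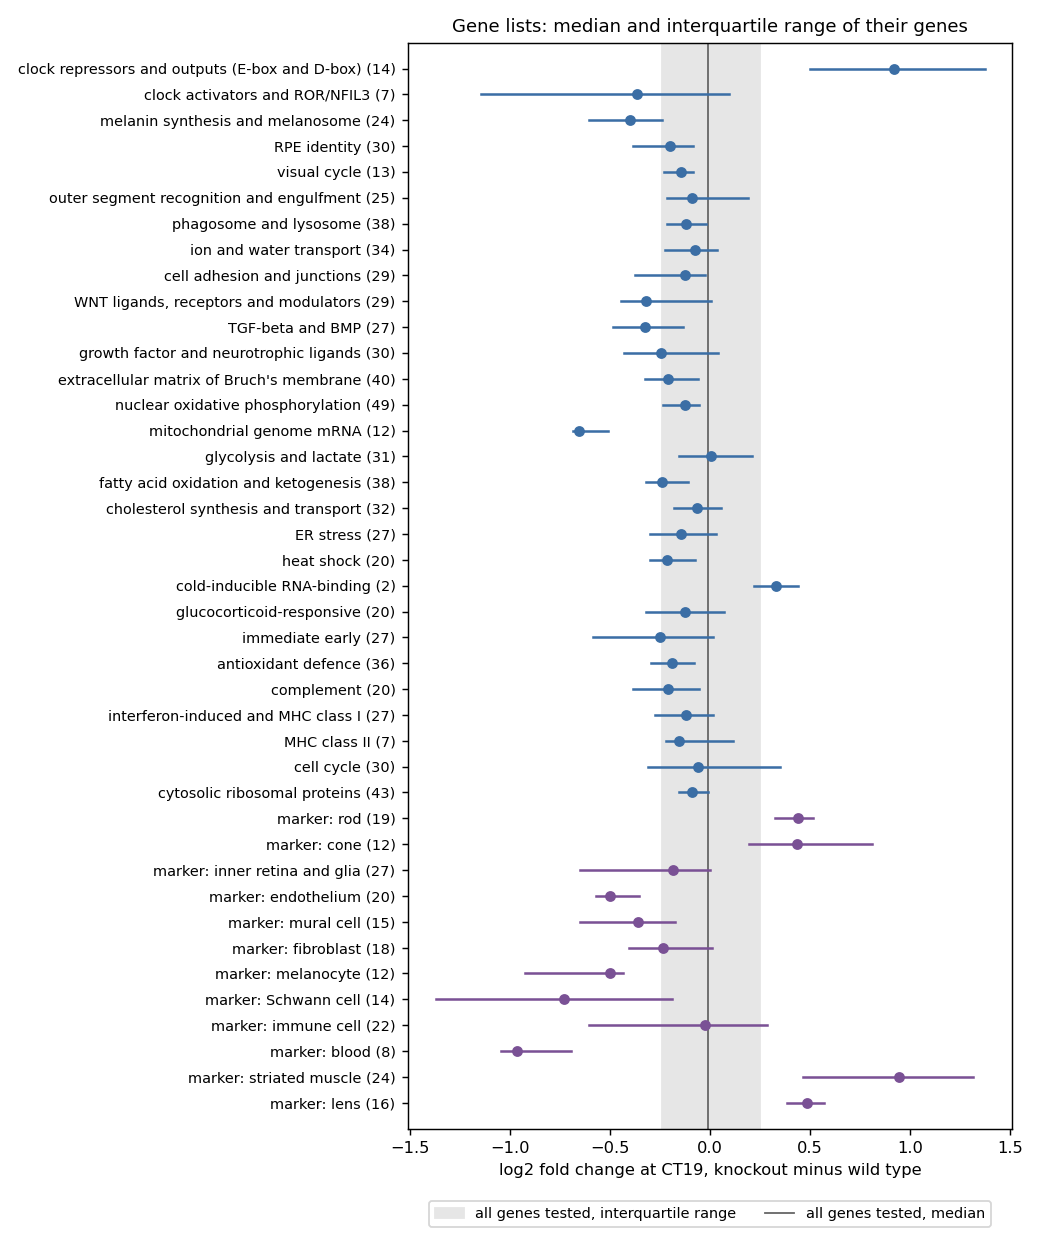
Median (point) and interquartile range (line) of the log2 fold change at CT19, knockout minus wild type, for 41 gene lists with the number of genes tested. The grey band is the interquartile range of all genes tested. E-box and D-box clock genes stand at 0.92 and striated muscle markers at 0.94 (-0.34 without knockout library 4). Most lists lie between 0 and -0.5, and blood markers stand at -0.97.

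Pigment genes were mostly lower in knockout, and none passed (0.0691% of all genes did). Of 24 genes of melanin synthesis and melanosomes, 6 lay wholly below wild type (5.31% of all genes), 21 were negative (10416 of all 20275), and the median was -0.40. Mlana, a melanosome protein, was at 130.9, 124.5 and 143 CPM in wild type and 66.1, 54.7 and 81.4 CPM in knockout (log2 fold change -0.98, SE 0.23, adjusted p 0.2). Pmel was at 1299, 429 and 472 against 338, 174 and 267 CPM (log2 fold change -1.50, SE 0.36, adjusted p 0.2), where wild type library 1 stood far above the other two. Dct, an enzyme of eumelanin synthesis, was at 3691, 3904 and 3500.0 against 2403, 1580.4 and 2681 CPM. The list medians at CT22, CT1 and CT10 were -0.08, 0.11 and 0.24. Melanocytes of the choroid hold many of the same transcripts. The melanocyte list repeats genes of the pigment list, Mlana and Pmel among them, and is not a separate result. Dct made up most of its sum, with a mean of 3698 of 6274 CPM in wild type. The 12 melanocyte markers were negative in 12 of 12, with a median of -0.50 and sums of 6678, 6240.0 and 5905 CPM in wild type and 4576, 2630.0 and 4297 CPM in knockout, so the wild type sums did not overlap those of knockout. The 14 Schwann cell markers, another neural crest lineage, summed to 753, 701 and 986 CPM in wild type and 599, 377 and 603 CPM in knockout, with 13 negative and no overlap. That list shares Sox10, its most abundant member, and Erbb3 with the melanocyte list, so the sums of both are not independent. The part of these cell types in the pigment values was not tested.

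No gene of outer segment handling passed, where 0.0691% of all genes did. Among 25 genes of recognition and engulfment none had separate groups, with a median of -0.09. Mertk, the engulfment receptor, was at 155, 234 and 241 against 248, 184 and 222 CPM, and Mfge8, the bridging ligand of integrin receptors, at 117.2, 97.3 and 83.7 against 142, 119.9 and 95.4 CPM. Both overlapped. Of 38 phagosome and lysosome genes none passed and 31 were negative (median -0.12), and Asah1, acid ceramidase, was at 78.1, 80.2 and 108 against 95.2, 55.0 and 59.4 CPM. Among 13 visual cycle genes none passed (median -0.15). Of 30 RPE identity genes Cdh3 passed and the median was -0.20. In 34 ion and water transport genes none passed (median -0.08), and Slc6a6, the taurine transporter, was at 1385, 1157 and 1057 against 1932, 1816 and 1230.5 CPM.

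Signalling and matrix lists had negative medians. Of 29 WNT genes Dkk3 alone passed, with a median of -0.32 (-0.12 without wild type library 4). Of 27 TGF-beta and BMP genes none passed, 25 were negative and the median was -0.33. Tgfb2, a TGF-beta ligand, was at 29.9, 26.6 and 21.6 against 16.7, 7.20 and 11.4 CPM, and Ltbp1, which stores the ligand in the matrix, at 23.0, 16.03 and 18.4 against 9.94, 4.60 and 14.8 CPM. Of 30 growth factor and neurotrophic genes none passed and 5 were wholly lower, against 5.31% of all genes (median -0.25). Igfbp4, a binding protein of insulin-like growth factors, was at 193, 128.2 and 329 against 83.1, 125.3 and 101 CPM (log2 fold change -1.07, SE 0.27). Of 40 genes of the matrix under the RPE none passed (median -0.21), and Bgn, biglycan, was at 131.02, 115.95 and 163 against 81.4, 86.4 and 94.7 CPM.

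Among metabolic lists, Dbi was the only gene of 38 in fatty acid oxidation and ketogenesis that passed. In that list 33 were negative (median -0.24), and Hadhb, of the trifunctional protein of beta-oxidation, was at 34.4, 45.2 and 45.03 against 23.2, 22.9 and 26.1 CPM (log2 fold change -0.79, SE 0.19, adjusted p 0.2). Of 12 mRNAs of the mitochondrial genome all were negative and none passed, with a median of -0.65 and 4 wholly lower (5.31% of all genes). mt-Co1, a cytochrome oxidase subunit, was at 4514, 4317 and 7544 against 3297, 2910.1 and 4209 CPM, and the highest value was that of wild type library 4. Without that library the list's median was -0.31. Of 49 nuclear oxidative phosphorylation genes none passed and 10 were wholly lower (5.31% of all genes), with a median of -0.13. Hkdc1, a hexokinase-like gene, led the 31 glycolysis genes with 38.7, 57.7 and 42.7 against 27.6, 25.2 and 26.5 CPM (log2 fold change -0.81, SE 0.21, adjusted p 0.32). The glycolysis median was 0.01 (0.24 without wild type library 1), and none passed. None of 32 cholesterol genes passed either (median -0.07).

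Stress and defence lists held no gene that passed (0.0691% of all genes passed). Gpx3, the secreted glutathione peroxidase, was at 35.5, 35.3 and 40.3 against 17.5, 16.8 and 25.2 CPM, and 32 of 36 antioxidant genes were negative (median -0.19). Of 20 heat shock genes 5 were wholly lower (median -0.22), against 5.31% of all genes, while both cold-inducible genes were wholly higher, against 3.96%. Cirbp was at 142, 121.2 and 93.6 against 161, 199 and 162 CPM and Rbm3 at 33.1, 34.0 and 34.3 against 34.5, 36.7 and 38.2 CPM, the latter a difference of 0.11 on the log2 scale. Ier5, of the immediate early genes, was at 29.5, 39.7 and 38.0 against 22.5, 15.4 and 21.6 CPM, and the median of its 27 genes was -0.25. Medians were -0.21 for 20 complement genes, -0.12 for 27 interferon and MHC class I genes, and -0.16 for 7 MHC class II genes. They were -0.14 for 27 ER stress genes, -0.13 for 20 glucocorticoid-responsive genes, -0.06 for 30 cell cycle genes and -0.09 for 43 ribosomal protein genes.

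Among markers of neighbouring cells none passed apart from Dkk3. Summed levels of the blood, melanocyte, Schwann cell and mural cell lists did not overlap between genotypes, and those of the other 8 lists did. The melanocyte and Schwann cell lists share Sox10 and Erbb3. The 19 rod markers were positive in 19 of 19, with a median of 0.44. Their sums were 77508, 42991 and 37068 CPM in wild type and 62118, 99550 and 55588 CPM in knockout in library order, so wild type library 1 was above 2 knockout libraries and the groups overlapped. Sag, rod arrestin, was at 4051, 1977 and 2008 against 4088, 8304 and 4716 CPM. Rod markers were highest in knockout library 3and5, the library in which RPE identity genes had their lowest sum, 46622 CPM. The 20 endothelium markers were negative in 20 of 20 (median -0.50, sums of 929, 1349 and 1756 CPM in wild type and 902, 943 and 1039 CPM in knockout), and wild type library 4 was highest. Without it the endothelium median was -0.20. Mural cell markers had a median of -0.36 and sums of 844, 887 and 1082 CPM in wild type and 806, 645 and 673 CPM in knockout, and fibroblast markers had a median of -0.24. Cone markers stood at 0.44, inner retina and glia markers at -0.19 and immune markers at -0.03.

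**Figure D5:**
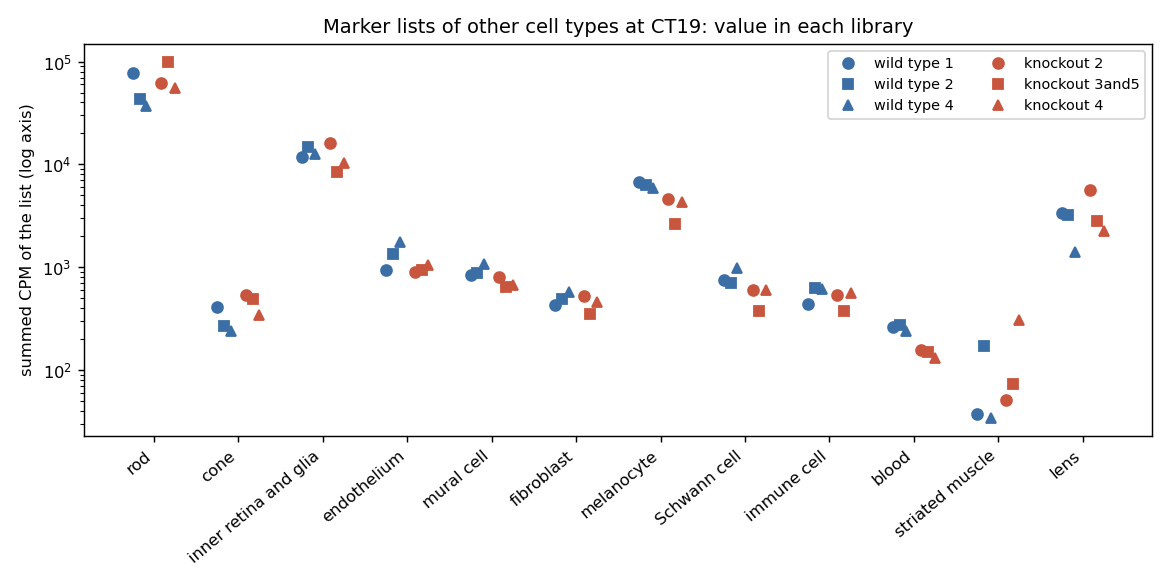
Summed CPM (log axis) of 12 lists of cell type markers, 1 point per CT19 library, blue for wild type and red for knockout. Sums of the blood, melanocyte, Schwann cell and mural cell lists separate by genotype, all lower in knockout (blood 129.6 to 156 against 239 to 276 CPM), while those of the other 8 lists overlap.

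Blood markers were negative in 8 of 8, with a median of -0.97 and sums of 262, 276 and 239 CPM in wild type and 156, 148 and 129.6 CPM in knockout. Of these 8, Slc4a1, Pf4 and Ppbp were below 1 CPM in each CT19 library. Hbb-bs, a beta globin, was at 151, 162 and 141 against 73.2, 86.2 and 76.9 CPM, and no library of one group fell in the range of the other. Lens markers had a median of 0.48 (-0.30 without knockout library 2) and striated muscle markers of 0.94, and the sums of both overlapped between groups. Muscle markers summed to 304 CPM in knockout library 4 and 51.3 and 73.8 CPM in the other two, and without knockout library 4 their median was -0.34. With the rod score, the mean log2(CPM + 1) of the rod markers, as a covariate 20 genes passed, 13 of the 14 among them, and Cdh3 did not. The choroid score is the same mean over the endothelium, mural cell and fibroblast markers. With it 13 passed, 12 of the 14 among them, and Cdh3 and Gm15348 did not.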

How the data were processed

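RNA-seq read counts per gene, whole numbers without normalization, were used as deposited by the authors for 54232 gene identifiers. The tools listed per the submitters' processing notes are HISAT2 2.1.0, HTSeq 0.11, Trimmomatic 0.32 and Cufflinks, with GRCm38.p6 as the build. What each tool did, which annotation was counted and whether strand was used are not given in the sources used here. Symbols were found for 54165 identifiers in the GENCODE annotation on GRCm38 and not for 67. A further 107 whose symbol another gene also had kept their identifier. No row stood for unassigned reads.

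All 24 libraries, in 8 groups of 3, entered 1 edgeR 4.0.16 quasi-likelihood fit in R 4.3.3 (TMM scaling, filterByExpr with a minimum count of 10, robust dispersions, 16 residual degrees of freedom). This kept 20275 genes. The CT19 difference is the contrast of its 3 knockout and 3 wild type libraries, so the spread is estimated from all groups. Each SE is the absolute log2 value divided by the square root of the F statistic of its test. It is thus approximate, and least reliable where counts are near 0. The threshold was an adjusted p under 0.05 (two-sided, Benjamini-Hochberg over all genes tested). Replicate libraries correlated with r of 0.9814 to 0.9919 on log2(CPM + 1), and none was a repeat of another.

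Genes named are all that passed, the 10 with the lowest p each way among genes that did not pass (at least 5 CPM, groups without overlap), the 3 with the lowest p of each list, the most abundant markers, Per1, Per2, and the 5 with the lowest interaction p each way (at least 5 CPM). Rpe65, Mertk, Cry1 and Bhlhe40 fall outside this rule and were chosen after their values were seen. The comparison, its genes and the lists were chosen with earlier results of these data known. Lists are described by counts and medians, without a test. The scripts were tested on simulated data. Alternatives were RLE scaling, other filters, the 6 libraries alone, the replicate number as a block, each library left out, DESeq2 1.42.0, and rod or choroid marker scores as covariates. Contrasts of CT19 with each other time were added after the data were seen.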

Additional observations from a re-analysis of the deposited data

Results flagged for a closer look

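For 7 genes, the genotype difference at CT19 differed from that at another time, by a contrast of the 2 differences in the edgeR fit over all 24 libraries. These contrasts were added after the data were seen. Against CT10, the CT19 log2 fold change was higher by 4.63 for Ciart (adjusted p 4.3e-04), 1.38 for Nr1d1 (0.0057), 1.74 for Dbp (0.020), 2.56 for Per2 (0.025), 6.28 for Gm9176 (0.032) and 1.96 for Per3 (0.038). It was lower by -1.96 for Rasl11a, a small RAS-like GTPase (0.0074). Against CT1, Nr1d1 was higher by 1.34 (0.018). Against CT22, no gene passed in edgeR, and 784 had an unadjusted p under 0.05, fewer than such a threshold gives on average where no gene differs.

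Rasl11a is the gene of these outside the clock that did not pass at CT19 alone. Its mean in wild type was 19.04 ± 1.06 CPM at CT19 and 5.51 ± 0.69 CPM at CT10 (SD, n = 3). In knockout it was 9.84 ± 0.51 CPM and 11.1 ± 1.49 CPM, so the knockout libraries were lower at CT19 and higher at CT10. Mean Gm9176 in wild type was 0.081 CPM at CT19 and 3.84 CPM at CT10, and in knockout 2.78 and 1.58 CPM. Mean Per3 in wild type was 57.3 CPM at CT19 and 180.1 CPM at CT10, and in knockout 135 and 109 CPM.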

How the results depend on the processing

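The number of genes that passed at CT19, 14 as given above, was 14 with RLE scaling, 15 with at least 5 CPM, 20 with the rod score and 13 with the choroid score. It was 1.2e+02 with no filter on low counts (49 higher and 68 lower, all 14 included), 37 with DESeq2 (16 higher and 21 lower, all 14 included) and 4 with the 6 CT19 libraries alone. With the replicate block, in which 7 residual degrees of freedom remain, it was 2, Ciart and Per2. The replicate numbers only name libraries of different genotypes: deviations of same-numbered libraries correlated with r of 0.0076 and 0.0589. Leaving out 1 library gave 3 to 11. Ciart passed in each of the 14 alternatives, and Nr1d1 and Dbp in all but the 6 libraries alone and the replicate block. Over all alternatives, 73 values of the 14 genes lost their call, with no change of sign. The contrast of CT19 with the other times, which called 0 genes, called 1 with RLE scaling, 1 with at least 5 CPM, 1 with DESeq2, 100 with no filter and 0 to 1 with a library left out. Among list members that did not pass, the sign changed for Serping1 (0.092 with the choroid score), H2-Aa (0.027 with the rod score), Cd74 (0.081 with the rod score, -0.52 to 0.019 with a library left out), Myh2 (-0.45 with the replicate block, -1.03 to 4.28 with a library left out), Myh3 (-1.42 to 11.30 with a library left out) and Crygc (-0.38 to 1.19 with a library left out). The libraries without which it turned were wild type 2 for Cd74, knockout 4 for Myh2 and Myh3 and knockout 2 for Crygc. The cause was not tested. Of the list medians, 525 values stayed within the spread and 49, over 23 of the 41 lists, moved beyond it. With the choroid score 14 moved and with the rod score 11. With the choroid and then the rod score, the extracellular matrix median (-0.21) became 0.06 and 0.02 and the WNT median (-0.32) 0.05 and -0.01. The interferon and MHC class I median (-0.12) became 0.03 and 0.04. The endothelium median (-0.50) became 0.02 and -0.05, the fibroblast median (-0.24) 0.11 and 0.004 and the mural cell median (-0.36) -0.16 and -0.17. Endothelium, fibroblast and mural cell markers make up the choroid score, so the shift of their medians with it was built in and is not a result. The extracellular matrix list shares at least Col3a1 with the fibroblast markers, so its shift with the choroid score was in part built in. With the choroid score the TGF-beta and BMP median (-0.33) became -0.15, the complement median -0.04, the ribosomal median -0.31 and the heat shock median -0.34, and with the rod score the MHC class II median 0.19. The Schwann cell median (-0.73) was -1.27 with at least 5 CPM and -0.40 with the 6 libraries alone, and the immediate early median (-0.25) -0.41 with the replicate block. With a library left out, the clock repressor and output median was 0.82 to 1.10. The melanocyte median was -0.77 without knockout 2, the blood median -0.78 and the glucocorticoid median -0.23 without knockout 4, the nuclear oxidative phosphorylation median -0.05 without wild type 1, and the striated muscle median 3.24 without wild type 2. The immune and cell cycle medians, near 0, changed sign in several settings.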
